A study of Homo sapiens with 4 samples.

Results

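Copying DNA once per cell cycle depends on a set of proteins that most cells make as they approach S phase. The list described here held 43 gene symbols of origin licensing, the replicative helicase, the DNA polymerases and their clamp, nucleotide supply, chromatin assembly and the E2F factors. They were looked up by symbol in a table of 25277 symbols from 4 RNA sequencing libraries. Of the 43, 42 had a row and SLBP2 had none. All 42 were above 0 in every library and passed the minimum mean of 1 FPKM (fragment counts scaled to transcript length and library size), so all 42 were tested. The libraries came from Mino and Z138, established lines of mantle cell lymphoma, a B cell cancer. Each line was a stable line carrying a doxycycline-switched vector, either a control vector named sc4 or a small hairpin RNA against BTK, the kinase downstream of the B cell receptor. All 4 cultures, controls included, had doxycycline for 48 hours, and each combination of line and vector gave 1 library. Where 2 values are given for a line (a pair), the control comes first and the hairpin second. The labels do not say what sc4 expresses, whether the stable lines are single clones, or which part of BTK the hairpin matches, and libraries of a second hairpin were not analysed here.

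In G1, the origin recognition complex, CDC6 and CDT1 load the MCM2-7 ring onto DNA, which licenses an origin. The CDC7-DBF4 and cyclin E kinases then help CDC45 and GINS join the ring to form the moving helicase. Many of these genes are bound by E2F factors, which the retinoblastoma protein holds in check until G1 cyclin kinases inactivate it, and in mantle cell lymphoma cyclin D expression acts on that step.

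The E2F letters can be read in the promoters of these genes. The 250 bases before the start are shown for E2F1 and MCM6 (a regulator and a helicase subunit that have several matches), for PCNA (the most abundant clamp gene, with 1 match) and for CCNE1 (the member that differed most between the lines, with no match). Capitals mark matches to TTTCCCGC, TTTGGCGC, TTTCGCGC or TTTGCCGC on either strand. The sequences are from RefSeq (GRCh38.p14), written 5′ to 3′ in the direction of the gene: E2F1 at chr20:33686386-33686635 (minus strand), MCM6 at chr2:135876444-135876693 (minus strand), PCNA at chr20:5126623-5126872 (minus strand) and CCNE1 at chr19:29811741-29811990 (plus strand).
E2F1: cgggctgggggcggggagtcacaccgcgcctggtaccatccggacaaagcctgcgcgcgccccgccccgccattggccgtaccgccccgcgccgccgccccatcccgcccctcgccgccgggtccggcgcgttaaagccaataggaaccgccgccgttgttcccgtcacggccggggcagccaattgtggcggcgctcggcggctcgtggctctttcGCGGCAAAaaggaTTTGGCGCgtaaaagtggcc
MCM6: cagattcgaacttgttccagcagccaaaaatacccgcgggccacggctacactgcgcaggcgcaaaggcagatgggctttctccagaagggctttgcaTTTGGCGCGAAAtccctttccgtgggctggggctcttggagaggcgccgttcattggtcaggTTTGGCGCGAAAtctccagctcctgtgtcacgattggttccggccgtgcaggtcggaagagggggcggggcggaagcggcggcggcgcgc
PCNA: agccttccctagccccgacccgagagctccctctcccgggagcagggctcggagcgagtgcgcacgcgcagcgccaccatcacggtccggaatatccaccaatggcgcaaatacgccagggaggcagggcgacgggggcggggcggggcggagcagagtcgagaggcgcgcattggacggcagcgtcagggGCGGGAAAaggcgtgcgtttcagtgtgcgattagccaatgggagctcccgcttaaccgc
CCNE1: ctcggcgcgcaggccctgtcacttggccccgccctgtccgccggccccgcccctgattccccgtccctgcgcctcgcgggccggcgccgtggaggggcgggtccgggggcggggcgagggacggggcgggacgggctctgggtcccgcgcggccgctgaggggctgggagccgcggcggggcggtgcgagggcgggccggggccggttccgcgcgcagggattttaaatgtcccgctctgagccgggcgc

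In E2F1 the matches began 33 and 20 bases before the start. In MCM6, 4 matches lay in 2 overlapping pairs, which began 152 and 148, and 90 and 86, bases before the start. Of the 42 genes, 37 had at least 1 RefSeq promoter (250 bases before to 50 after the start), and 20 of the 37 held a match. Counted by promoter, 21 of 49 promoters of these genes (42.9%) held one, against 3.31% of all 35116 promoters in the table and 4 of 27 promoters (14.8%) of G2 and mitosis genes. The letters CCAAT, on either strand, were in 28 of the 49 (57.1%), against 34.6% of all promoters and 21 of 27 promoters (77.8%) of G2 and mitosis genes. A match describes letters in these windows and is not a measured binding site. The 20 genes with a match had a median hairpin log2 ratio of 0.00 in Mino, and of −0.06 in Z138. The 17 without had 0.02 and 0.04.

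Columns of the table summed to between 669013 and 740192 FPKM, and read depth is unknown. BTK was at 37.0 and 9.84 FPKM in the Mino pair and 51.0 and 12.4 in the Z138 pair (mean log2 ratio −1.88, SE 0.13, limma adjusted p = 0.000964, lower in 2 of 2 lines). The 9 B cell and mantle cell lymphoma markers summed to between 1357 and 1622 FPKM, mostly CD79A and CD79B and, in Z138, CCND1. Single markers were less even than the sum: CD22 was at 107 and 102 FPKM in the Mino pair and 3.34 and 5.96 in the Z138 pair. Cyclin D1 (CCND1), whose overexpression defines most mantle cell lymphomas, was at 591 and 600 FPKM in the Z138 control and hairpin libraries and at only 3.18 and 2.62 in Mino, and CD5 was at 2.33 and 1.70 in Mino and 0.0751 and 0.0531 in Z138. The 5 T cell markers summed to 1.72 to 4.67 FPKM with CD2 at 0 in all 4 libraries, and the 5 myeloid markers to 1.40 to 4.40. The 5 fibroblast and epithelial markers summed to 39.9 and 36.1 in Mino, mostly KRT8, and to 1.45 and 1.22 in Z138. Across genes, the hairpin ratio in Z138 was lower at higher GC content (Spearman rho −0.57 over 10477 genes), whereas in Mino rho was 0.11. Over the 42 replication genes rho was −0.63 in Z138 and 0.01 in Mino, so GC-rich members of the list had lower Z138 ratios. Such correlations run across genes and not across replicates. An alternative set of ratios, with spline trends on GC content and transcript length removed in each line, turned the sign of the ratio for 2 of the 42 genes in Mino and for 13 in Z138. It is given beside some of the results named below. The 13 include CCNE2, CDC7, CDC6, MCM6 and POLA1, whose Z138 ratios went from above 0 to −0.10, −0.12, −0.04, −0.06 and −0.01.

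**Figure D1:**
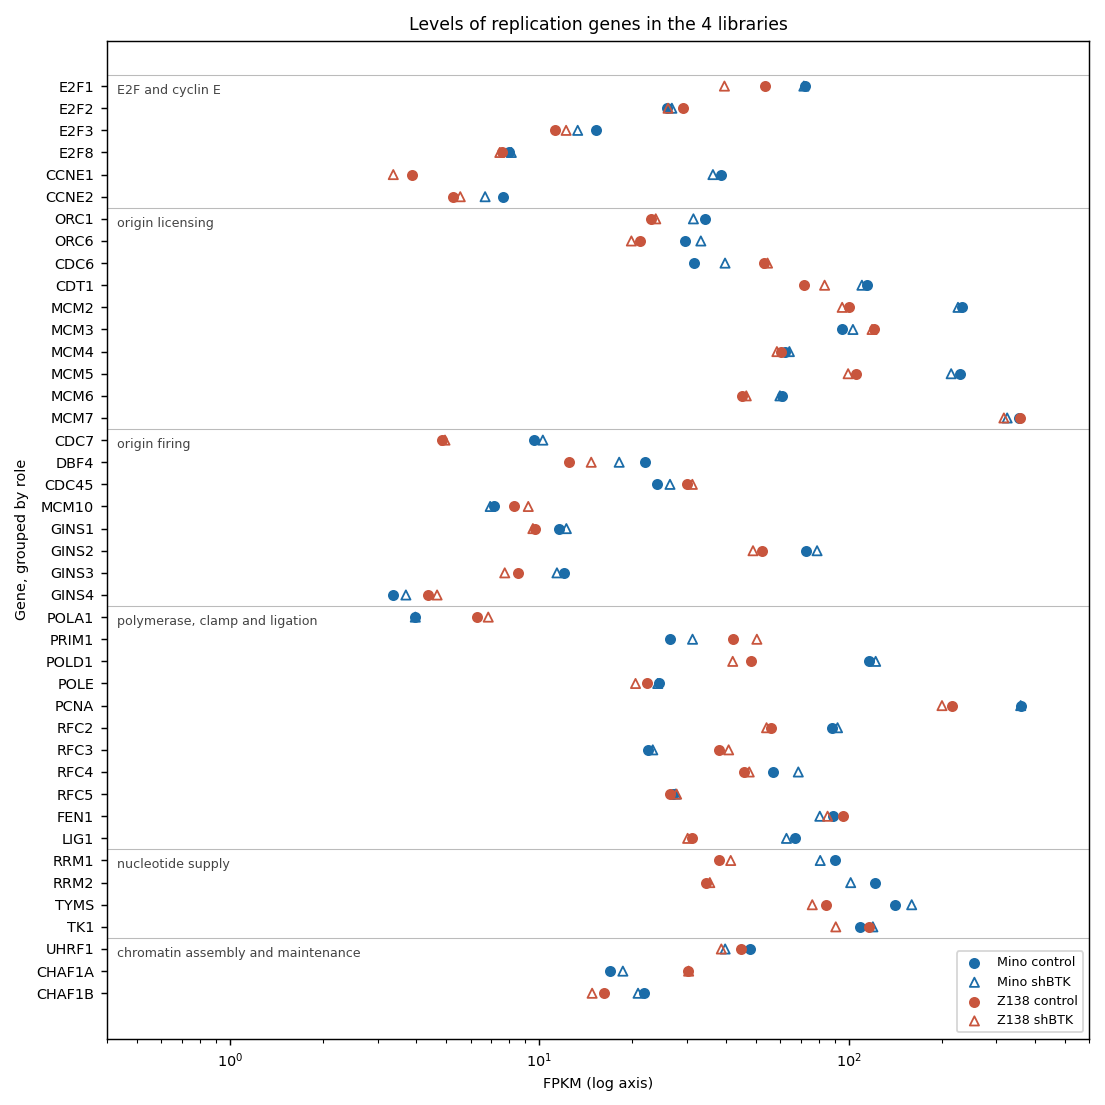
Level of each of the 42 genes in the 4 libraries, in FPKM on a log axis, with 1 point per library (blue Mino, red Z138, filled circle control, open triangle hairpin) and genes grouped by role. Control and hairpin points of a line mostly sit together, while the colours separate most clearly for CCNE1, RRM2, POLD1, MCM2 and MCM5.

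The first comparison asked whether lowering BTK changed the replication genes in both lines. None of the 42 genes passed the test (limma with line as a term, Benjamini-Hochberg over 11484 genes), and 0 had an unadjusted p under 0.05. Over all tested genes 0.122% passed the adjusted threshold and 2.79% had an unadjusted p under 0.05. Mean log2 ratios of the 42 genes over both lines ran from −0.23 (UHRF1) to 0.24 (PRIM1), with SE between 0.11 and 0.15. The 95% intervals of the single genes reached down to −0.54 (E2F1) and up to 0.52 (PRIM1) on the log2(FPKM + 1) scale, so changes of up to 1.45-fold lie within them. In bulk RNA a smaller share of cells in S phase and less transcript per cell cannot be told apart. With 1 library per line and vector, the 2 lines are the only replication, and the difference between their responses gives 1 residual degree of freedom. In limma that difference is combined with a variance pooled over all genes (6.88 prior degrees of freedom). Each SE, interval and p-value therefore rests mostly on the pooled variance and only partly on the gene's own 2 responses.

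Taken within a line, the genes stayed near their controls. The median log2 ratio of the 42 genes was 0.00 in Mino, with 21 above and 21 below 0 (47.7% and 51.9% of all genes), beside −0.01 over all tested genes. In Z138 it was −0.02, with 19 above and 23 below 0 (55.3% and 43.7% of all genes), beside 0.03 over all tested genes. At a log2 ratio of 0.322 or more in size, CDC6 alone was higher in the Mino hairpin library (1 of 42, against 4.44% of all genes) and 0 were lower (against 5.75%). In Z138, E2F1 and TK1 were lower by that measure (2 of 42, against 4.17% of all genes) and 0 were higher (against 5.32%). No gene of the list reached 1.5-fold in either line, where 0.923% of all genes did in Mino on the higher side and 1.24% on the lower side, and 0.94% and 0.819% in Z138. Ratios were above 0 in both lines for 10 genes (23.8%, against 23.1% of all genes) and below 0 in both for 12 (28.6%, against 19.4%). They had opposite signs for 20 (47.6%, against 56.2%).

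**Figure D2:**
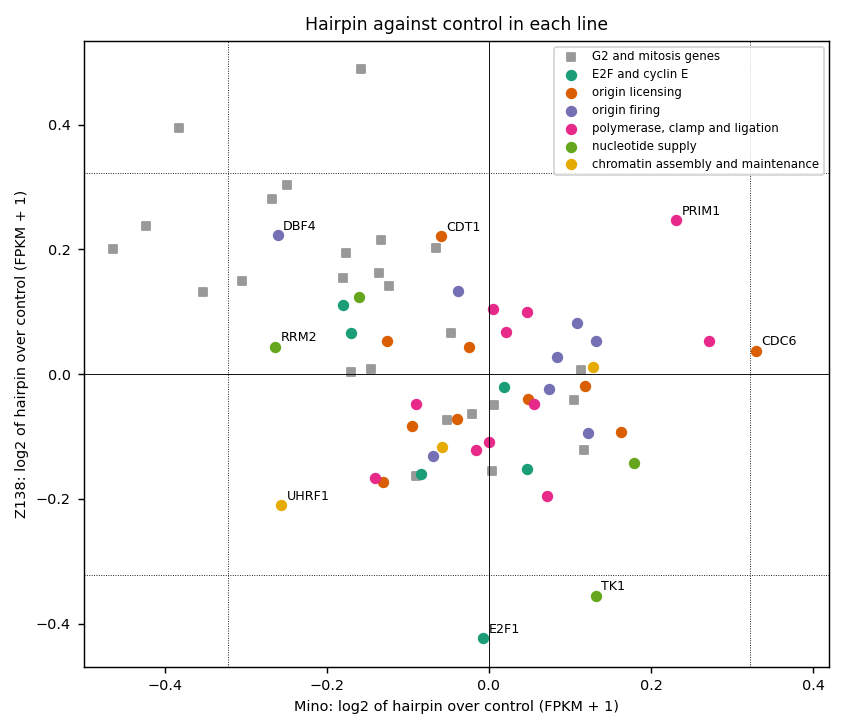
Log2 ratio of hairpin to control (FPKM + 1) in Mino (x axis) and Z138 (y axis), with 1 point per gene, coloured by role for the replication genes and grey squares for 25 G2 and mitosis genes; dotted lines mark log2 ratios of 0.322 either way. The replication genes scatter around 0 with CDC6, E2F1 and TK1 just past a dotted line, while most grey squares lie to the upper left.

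Among the E2F factors and their partners, E2F1, an activator of S phase genes, was at 72.0 and 71.7 FPKM in the Mino pair and 53.5 and 39.7 in the Z138 pair. The Z138 hairpin library thus held the lowest value and both Mino libraries the highest. Its log2 ratios were −0.01 in Mino and −0.42 in Z138, and the mean of −0.21 (SE 0.14) had an unadjusted p of 0.163 in limma. E2F1 is 62.5% GC, and with the GC and length trends removed its Z138 ratio was −0.321. E2F2, also an activator, lay between 25.9 and 29.1 FPKM in all 4 libraries. E2F3 ran from 11.2 to 15.2, and E2F8, a repressor that acts later in S phase, from 7.45 to 8.12. CCNE1 and CCNE2, the cyclins that drive CDK2 at the G1 to S transition, had ratios of −0.08 and −0.17 in Mino and −0.16 and 0.07 in Z138.

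Licensing genes held the highest Mino ratio of the list. CDC6, the loader of MCM2-7, was at 31.5 and 39.8 FPKM in the Mino pair and 53.3 and 54.7 in the Z138 pair. Both Z138 values exceeded both Mino values, and the gap between vectors was wider in Mino (log2 ratio 0.33) than in Z138 (0.04). The mean was 0.18 (SE 0.13, unadjusted p = 0.199 in limma). CDT1, its partner in loading, was at 115 and 110 FPKM in the Mino pair and 71.6 and 83.6 in the Z138 pair, ratios of −0.06 and 0.22. ORC1 and ORC6, subunits of the origin recognition complex, had ratios of −0.13 and 0.16 in Mino and 0.05 and −0.09 in Z138. The 6 MCM2-7 genes had ratios from −0.13 (MCM7) to 0.12 (MCM3) in Mino and from −0.17 (MCM7) to 0.04 (MCM6) in Z138. MCM2, MCM5 and MCM7 were below 0 in both lines, though MCM2 was at 0.01 in Z138 with the GC and length trends removed.

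Origin firing genes also had ratios near 0. DBF4, the activating subunit of the CDC7 kinase, was at 21.9 and 18.1 FPKM in the Mino pair and 12.5 and 14.7 in the Z138 pair, with log2 ratios of −0.26 and 0.22. The lines thus differed in direction, a difference that could not be tested with 1 pair of libraries per line, and the Z138 ratio of DBF4 was 0.08 with the GC and length trends removed. CDC7 itself had ratios of 0.08 and 0.03. CDC45, MCM10 and the 4 GINS genes, which complete the helicase, ran from −0.07 (GINS3) to 0.13 (CDC45) in Mino and from −0.13 (GINS3) to 0.13 (MCM10) in Z138.

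In the synthesis machinery, PRIM1, the catalytic primase subunit, was at 26.5 and 31.3 FPKM in the Mino pair and 42.4 and 50.5 in the Z138 pair. The hairpin library was above its control in both lines, with ratios of 0.23 and 0.25, yet the mean of 0.24 (SE 0.12) had an unadjusted p of 0.0845 and an adjusted p of 1.00 in limma. With the GC and length trends removed, the Z138 ratio of this gene (40.7% GC) was 0.13. FEN1, the nuclease that trims Okazaki fragments, was at 89.0 and 80.7 FPKM in the Mino pair and 96.1 and 85.5 in the Z138 pair, lower with the hairpin in both lines (mean −0.15, SE 0.12, unadjusted p = 0.223 in limma), and FEN1 in Z138 moved from −0.17 to −0.11 with those trends removed. RFC4, a clamp loader subunit, was at 56.8 and 68.7 FPKM in the Mino pair and 46.0 and 47.7 in the Z138 pair. PCNA, the sliding clamp, was at 360 FPKM in both Mino libraries and at 216 and 200 in Z138. The other 7 genes of this group had ratios between −0.09 (LIG1, the ligase) and 0.07 (POLD1) in Mino and between −0.20 (POLD1, a polymerase delta subunit) and 0.11 (POLA1, the catalytic subunit of polymerase alpha) in Z138.

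All 4 genes of nucleotide supply had opposite signs in the 2 lines, as did 56.2% of all genes. RRM1 and RRM2, the subunits of ribonucleotide reductase, stood at −0.16 and −0.26 on the log2 scale in Mino, and at 0.12 and 0.04 in Z138. RRM2 had −0.02 in Z138 once GC and length trends were removed, the same sign as in Mino. TYMS, which makes thymidylate, and TK1, thymidine kinase, had 0.18 and 0.13 in Mino and −0.14 and −0.35 in Z138. TK1 was at 109 and 120 FPKM in the Mino pair and 116 and 90.9 in the Z138 pair, so the Z138 hairpin library alone stood below the other 3. TK1 is 62.8% GC, and its Z138 ratio was −0.24 with the GC and length trends removed, so that neither it nor E2F1 then reached 0.322 in size.

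UHRF1, which guides DNA methylation to newly copied DNA, had the lowest mean. It was at 47.8 and 39.9 FPKM in the Mino pair and 45.0 and 38.8 in the Z138 pair. Both hairpin values lay below both control values, with log2 ratios of −0.26 and −0.21 (mean −0.23, SE 0.12, unadjusted p = 0.0895, adjusted p = 1.00 in limma). CHAF1A and CHAF1B, subunits of the CAF-1 histone chaperone, had ratios of 0.13 and −0.06 in Mino and 0.01 and −0.12 in Z138.

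The next comparison asked how the lines differ in the level of these genes, taking both libraries of each line (limma, line term of the same model). The libraries of a line carried different vectors and were not repeat cultures. The p-values of this comparison therefore do not measure the spread between cultures of the same line. Of the 42 genes, 26 passed (61.9%), against 67.4% of all genes, so a line difference was no more frequent in this list than elsewhere. Genes called higher in Mino were 21 of the 42 (against 38.8% of all genes), and those called higher in Z138 were 5 of the 42 (against 28.7%). With libraries centred on the median ratio the split was 19 and 9, and with GC and length trends removed it was 21 and 9. The median Z138 minus Mino difference was −0.37 on the log2 scale, beside −0.12 over all genes. Values of the lines did not overlap for 27 genes higher in Mino (48.8% of all genes) and 9 higher in Z138 (37.4%).

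**Figure D3:**
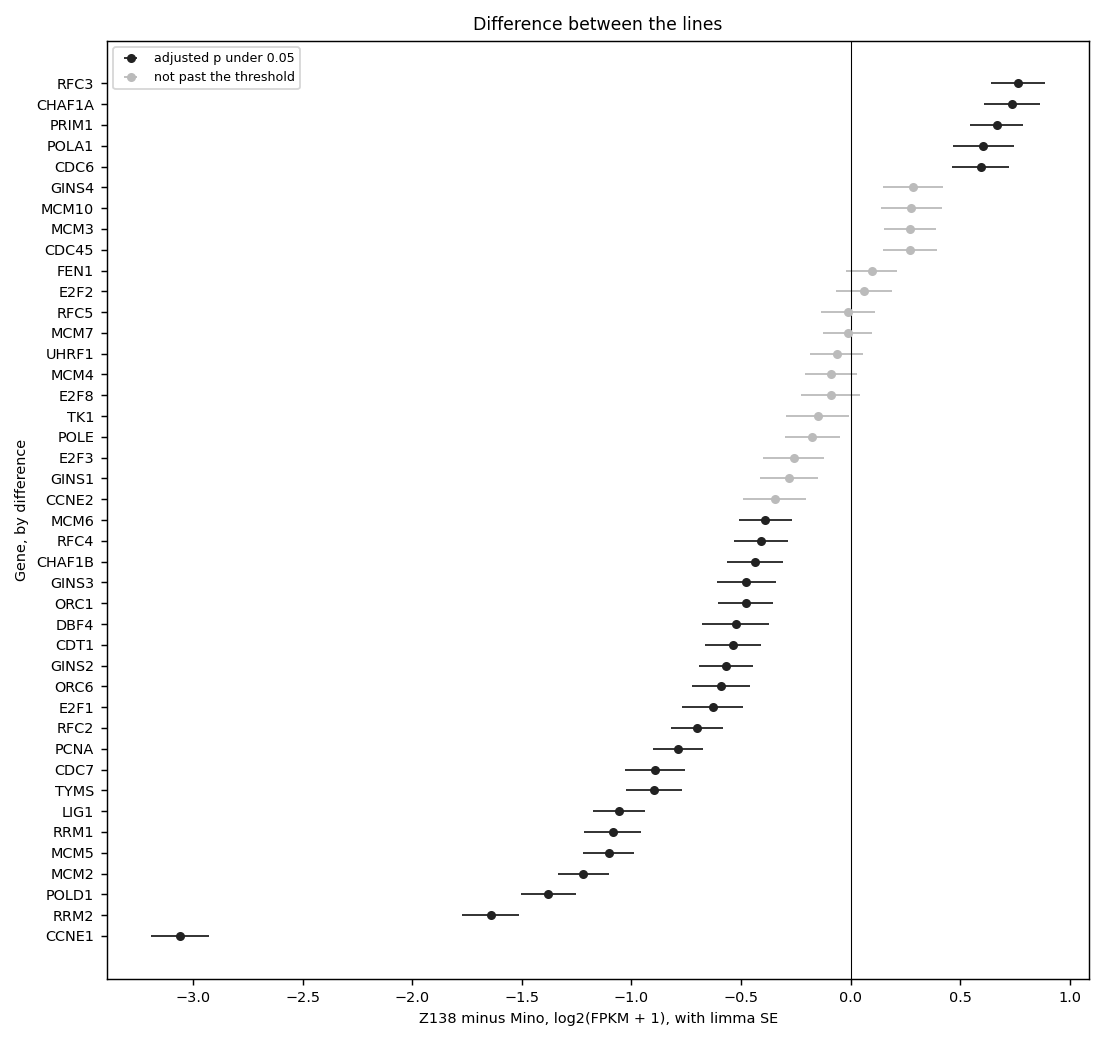
Z138 minus Mino difference of each gene on the log2(FPKM + 1) scale with the limma SE (bars), black where the adjusted p was under 0.05 and grey otherwise. CCNE1 lies far to the left at −3.06, and RFC3, CHAF1A, PRIM1, POLA1 and CDC6 are the 5 black points to the right of 0.

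CCNE1 differed most. It was at 38.7 and 36.4 FPKM in the Mino pair and 3.89 and 3.37 in the Z138 pair, a 10.3-fold ratio of line means (log2 difference −3.06, SE 0.13, limma adjusted p = 6.8e-07). Mino held about the same amount with either vector, and so did Z138. CCNE2 was at 7.64 and 6.68 FPKM in the Mino pair and 5.26 and 5.55 in the Z138 pair (log2 difference −0.35, SE 0.14, limma adjusted p = 0.0595). The order of the 2 cyclins was therefore reversed: CCNE1 was 5.06 and 5.45 times CCNE2 in the Mino libraries and 0.739 and 0.607 times CCNE2 in Z138. Exons of CCNE2 overlap those of INTS8 on the opposite strand (1629 shared bases in GENCODE release 29), and the sources used here do not say whether reads were counted by strand, so its level is uncertain. E2F1 was also higher in Mino (log2 difference −0.63, SE 0.14, limma adjusted p = 0.00435), while E2F2, E2F3 and E2F8 did not pass.

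Ribonucleotide reductase followed. RRM2, its cell cycle regulated small subunit, was at 122 and 102 FPKM in the Mino pair and 34.5 and 35.6 in the Z138 pair (log2 difference −1.64, SE 0.13, limma adjusted p = 1.5e-05). RRM1, the large subunit, was at 90.5 and 80.9 FPKM in the Mino pair and 38.1 and 41.6 in the Z138 pair (log2 difference −1.09, SE 0.13, limma adjusted p = 0.000137). RRM2 exceeded RRM1 in both Mino libraries and lay below it in both Z138 libraries. TYMS was at 141 and 160 FPKM in the Mino pair and 84.3 and 76.3 in the Z138 pair and also passed, whereas TK1 did not. RRM2 shares 1077 exon bases with the symbol AC007240.1, and TYMS shares 967 with ENOSF1 on the opposite strand, so their levels may include reads of those genes. In all, 8 of the 42 genes shared at least 100 exon bases with another protein-coding gene. Besides CCNE2, RRM2 and TYMS, these were POLD1, PRIM1, MCM7, FEN1 and DBF4. MCM2 and GINS4 shared 1113 and 1159 bases with antisense genes. The same doubt applies to the levels of all these genes.

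The MCM2-7 subunits, which sit in the ring in equal number, did not differ between the lines by equal amounts. MCM2 was at 232 and 226 FPKM in the Mino pair and 100 and 95.3 in the Z138 pair (log2 difference −1.22, SE 0.11, limma adjusted p = 3.8e-05). MCM5 was at 229 and 214 FPKM in the Mino pair and 106 and 99.6 in the Z138 pair (log2 difference −1.10, SE 0.11, limma adjusted p = 6.5e-05). Line means of these 2 subunits were 2.34-fold and 2.16-fold higher in Mino. MCM7 was the most abundant subunit in all 4 libraries, at 356 and 325 FPKM in the Mino pair and 358 and 318 in the Z138 pair, with a difference of −0.01 (95% interval −0.28 to 0.25). MCM3 was at 95.0 and 103 FPKM in the Mino pair and 121 and 119 in the Z138 pair and did not pass (limma adjusted p = 0.0717). MCM4 lay between 58.6 and 64.3 FPKM throughout, and MCM6 was at 61.0 and 60.0 in the Mino pair and 45.2 and 46.7 in the Z138 pair (log2 difference −0.39, SE 0.12, limma adjusted p = 0.0198). MCM6 did not pass with libraries centred on the median ratio (limma adjusted p = 0.0862). The order by FPKM was MCM7, MCM2, MCM5, MCM3, MCM4, MCM6 in both Mino libraries and MCM7, MCM3, MCM5, MCM2, MCM4, MCM6 in both Z138 libraries. MCM4 was at most 1.07 times MCM6 in Mino, and MCM2 and MCM5 differed by at most 1.05 times in every library, so those neighbours cannot be ordered with 1 library per vector.

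**Figure D4:**
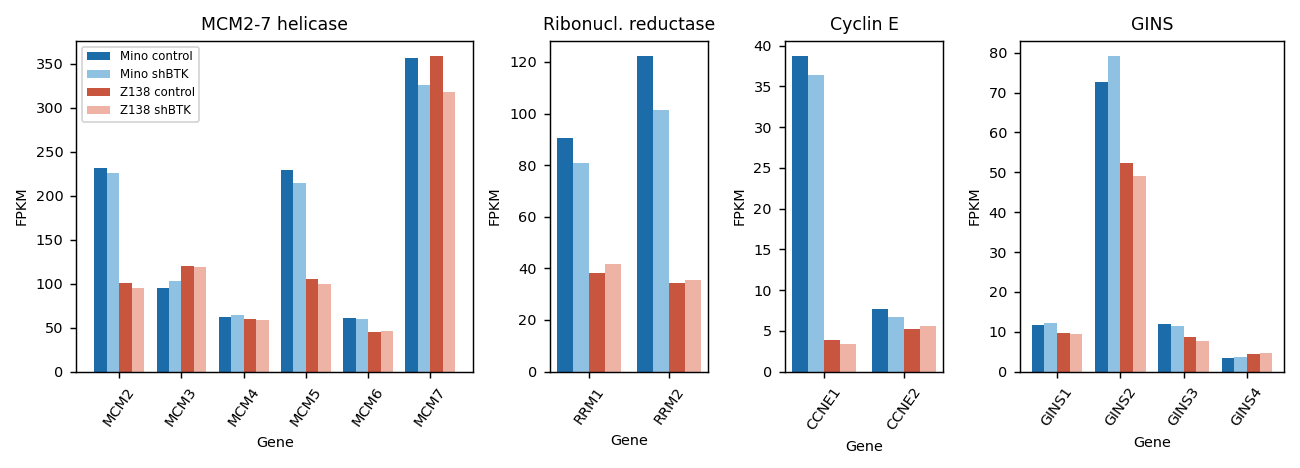
FPKM (linear axes from 0) of the subunits of the MCM2-7 ring, ribonucleotide reductase and GINS and of both E cyclins, with 1 bar per library (dark control, light hairpin, blue Mino, red Z138) and no error bars since each bar is 1 library. MCM2, MCM5, RRM1, RRM2 and CCNE1 are tall in Mino and short in Z138, while MCM7 reaches the same height in both lines.

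Levels also spread within other complexes. GINS2 was at 72.6 and 79.0 FPKM in the Mino pair and 52.4 and 49.1 in the Z138 pair, whereas GINS4 lay between 3.36 and 4.67 FPKM, which is 10.5 to 21.6 times lower in the same library. GINS2 and GINS3 passed as higher in Mino, and GINS1 and GINS4 did not pass. CDC7 was at 9.64 and 10.3 FPKM in the Mino pair and 4.84 and 4.96 in the Z138 pair (log2 difference −0.89, SE 0.14, limma adjusted p = 0.000555), and DBF4 passed in the same direction. CDC45 and MCM10 were not called, but CDC45, MCM10, GINS4 and MCM3 each passed as higher in Z138 with libraries centred on the median ratio (limma adjusted p = 0.0147, 0.0169, 0.0172 and 0.0140) and with GC and length trends removed.

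Polymerase genes split by direction. POLD1 was at 116 and 122 FPKM in the Mino pair and 48.4 and 42.2 in the Z138 pair (log2 difference −1.38, SE 0.13, limma adjusted p = 3.2e-05). LIG1 was at 67.0 and 62.9 FPKM in the Mino pair and 31.2 and 30.2 in the Z138 pair, a 2.12-fold ratio of line means. PCNA and RFC2 also passed as higher in Mino, as did RFC4, which did not pass with libraries centred on the median ratio (limma adjusted p = 0.0716). In the other direction, RFC3 was at 22.5 and 23.3 FPKM in the Mino pair and 38.2 and 40.9 in the Z138 pair (log2 difference 0.76, SE 0.12, limma adjusted p = 0.000771). PRIM1 and POLA1, which start each new strand together, were both higher in Z138 (log2 differences 0.67 and 0.61). Their partner subunits, outside the list, lay the other way. POLA2 was called higher in Mino (−0.41, limma adjusted p = 0.0198), and PRIM2 was at −0.27 and did not pass. POLE, RFC5 and FEN1 did not pass. CHAF1A was higher in Z138 (0.74) and CHAF1B higher in Mino (−0.44), so the larger CAF-1 subunit was the more abundant in Z138 and the less abundant in Mino.

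Other genes of the pathway, 64 in 5 lists, were described in the same way. None passed for the hairpin in limma, 0 had an unadjusted p under 0.05, and the median log2 ratios were 0.01 in Mino and 0.07 in Z138. With the GC and length trends removed the Z138 median was −0.01. The highest means belonged to ORC3 and ORC5, origin recognition subunits, with ratios of 0.27 and 0.23 in Mino and 0.29 and 0.22 in Z138 (unadjusted p = 0.0629 and 0.112 in limma). Their Z138 ratios were 0.16 and 0.11 with those trends removed. The lowest belonged to POLD4, a small polymerase delta subunit, at 44.9 and 36.7 FPKM in the Mino pair and 14.4 and 13.4 in the Z138 pair. Of 14 further licensing and firing genes, 13 were above 0 in Z138 (55.3% of all genes). Ratios were above 0 in both lines for 8 of the 14 (57.1%, against 23.1% of all genes), below in both for 0, and opposite for 6. The Z138 median of these 14 was 0.16, and 0.04 with the GC and length trends removed. Their difference from the 42 genes was not tested. Between the lines 35 of the 64 passed (54.7%, against 67.4% of all genes). Of the 64, 25 were called higher in Mino (38.8% of all genes) and 10 in Z138 (28.7%). SKP2, which targets the CDK inhibitor p27 and CDT1 for degradation, was at 32.1 and 32.2 FPKM in the Mino pair and 10.8 and 9.74 in the Z138 pair (log2 difference −1.56, SE 0.13, limma adjusted p = 1.8e-05). SLBP, the factor that binds histone mRNA, lay between 65.9 and 74.8 FPKM in all 4 libraries.

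G2 and mitosis genes, which act after replication, were set beside the list. Of 25, 20 were below 0 in Mino (51.9% of all genes were) and 18 above 0 in Z138 (55.3%), and 21 had opposite signs in the 2 lines (56.2%). Their medians were −0.14 and 0.14, and −0.12 and 0.07 with the GC and length trends removed. For the 42 replication genes the medians were 0.00 and −0.02, with opposite signs for 20. No G2 or mitosis gene passed for the hairpin in limma, 0 had an unadjusted p under 0.05, and the difference between the lists was not tested. Cluster histone genes, whose transcripts accumulate in S phase (49 symbols beginning with HIST that passed the minimum), had a median ratio of −0.05 in Mino, and of 0.87 in Z138. Of the 49, 45 were above 0 in Z138 (55.3% of all genes) and 23 in Mino (47.7%). The minimum kept 49 of 71 such symbols by their mean over the 4 libraries. Some passed it only through the Z138 hairpin library, such as HIST1H4D, HIST1H3J and HIST2H3D. HIST1H3J was at 0.530 and 0.602 FPKM in the Mino pair and 0.723 and 4.94 in the Z138 pair. The filter thus favours ratios above 0 in Z138, so the median and counts of the 49 partly follow from it. In limma 2 of the 49 passed for the hairpin (0.122% of all genes) and 21 had an unadjusted p under 0.05 (2.79%). These counts also partly follow from the filter. HIST1H1E, a linker histone gene, was at 0.913 and 2.99 FPKM in the Mino pair and 1.51 and 5.61 in the Z138 pair (mean log2 ratio 1.23, SE 0.15, limma adjusted p = 0.0364). HIST2H3D, a histone H3 gene, passed the minimum only through the Z138 hairpin library. It was at 1.05 FPKM in the Mino hairpin library and listed at 0 in its control. In the Z138 pair it was at 0.881 and 3.001 (limma adjusted p = 0.0419). Both were higher with the hairpin in 2 of 2 lines. Neither passed with the GC and length trends removed (limma adjusted p = 0.35 for both) or with no filter on low values (0.85 for HIST1H1E and 0.302 for HIST2H3D), and HIST2H3D did not pass at a pseudocount of 0.1 (0.0864). These low levels were named after their values were seen, and near-identical histone copies can share reads. Over the 49 symbols the median level was 2.86 FPKM, while HIST1H2BK and HIST1H1C averaged 118 and 112. Whether the histone ratios follow the share of cells in S phase was not tested.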

How the data were processed

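RNA of 4 cultures was sequenced from Illumina TruSeq libraries, per the labels' protocols. The authors deposited 1 table of FPKM values, per the file headers. TopHat and hg19 are named in the submitters' processing notes. The program, annotation and filters behind the FPKM values were not given in the sources used here. Each of the 4 columns was used. FPKM values are not counts and depth is unknown, so no counting interval is given.

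Values were analysed as log2(FPKM + 1), which understates the change of low genes. The 11484 symbols averaging 1 FPKM or more were fitted in limma 3.58.1 (R 4.3.3) with line and vector as additive terms and a mean-variance trend, leaving 1 residual degree of freedom, with Benjamini-Hochberg adjustment over all genes at 0.05. Pairing of control and hairpin comes from the cell line. Ratios inside a line had no test and were read by size (log2 ratios of 0.322, and 1.5-fold). The limma code was tested on simulated data. GC content and length came from the longest GENCODE release 29 transcript (93.9% of tested symbols), and exon overlaps from the same release. Alternatives were another pseudocount, other filters, median centring, GC and length trends removed, and no line or vector term.

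The members and lists were chosen with earlier results of these data known. Every member of the list was described. From the pathway, mitosis and arrest lists, genes past the threshold were named (at most 10 per comparison by size), with the 2 highest and 2 lowest mean ratios per comparison at a mean of at least 5 FPKM. Cluster histone genes, POLA2 and PRIM2 were outside that rule.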

Additional observations from a re-analysis of the deposited data

Results flagged for a closer look

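TOP1, the topoisomerase that relieves twist ahead of the fork, had hairpin log2 ratios of opposite sign in the 2 lines, each past 0.322 in size. Its level was 46.5 and 35.0 FPKM in the Mino pair (control, then hairpin; −0.40) and 36.3 and 49.7 in the Z138 pair (0.44), a difference of 0.84 between the ratios. CENPF, a kinetochore gene of the G2 and mitosis list, was at 8.89 and 6.59 FPKM in the Mino pair (−0.38) and 12.6 and 16.9 in the Z138 pair (0.40), a difference of 0.78. With GC and length trends removed CENPF was at −0.28 and 0.23, short of 0.322, and TOP1 at −0.38 and 0.33. Neither difference was tested, as a line held only 1 library per vector. No gene among the 42 replication genes met this condition.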

How the results depend on the processing

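No replication gene passed for the hairpin under any of the 7 alternatives run, and the sign of the mean changed for 4 of 42 with median centring and for 4 with GC and length trends removed. Over all genes, 14 passed as reported. That number was 2 with no filter on low values, 9 at a mean of at least 5 FPKM, 28 without symbols listed at 0, 97 with median centring and 7 with GC and length trends removed. With no replicate block, that is without the line term that pairs each hairpin library with its control, 0 genes passed in limma. Between the lines, replication genes called higher in Z138 numbered 5 as reported and 9 both with median centring and with GC and length trends removed. Those called higher in Mino ranged from 19 to 23 over the alternatives. Replication genes lower by 0.322 or more (log2) in the Z138 hairpin library numbered 2 as reported and 0 with GC and length trends removed, and genes above 0 in both lines numbered 10 as reported and 6 in that setting. The cause of these shifts was not tested. Leaving out a library leaves a line without its pair, so no such fit was made, and each line's own ratio is given instead. Depth is unknown, and 1 library per line and vector limits all values.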

Other observations

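Genes of cell cycle arrest and DNA damage checkpoints differed between the lines. CDKN2A, the INK4A and ARF locus, was at 30.3 and 31.4 FPKM in the Mino pair (control first) and listed at 0 in both Z138 libraries. GADD45A was at 46.4 and 37.3 FPKM in the Mino pair and 0.912 and 0.955 in the Z138 pair. CDKN2C, a CDK4 and CDK6 inhibitor, was at 84.0 and 79.8 FPKM in the Mino pair and 17.3 and 16.7 in the Z138 pair (log2 difference −2.20, SE 0.12, limma adjusted p = 2.1e-06). CHEK1, the kinase of the replication checkpoint, was at 36.1 and 36.0 FPKM in the Mino pair and 11.7 and 11.3 in the Z138 pair (log2 difference −1.57, SE 0.13, limma adjusted p = 1.6e-05). CDKN1A and MDM2 lay the other way; both are p53 targets, as is GADD45A, which was higher in Mino. CDKN1A was at 75.2 and 69.1 FPKM in the Mino pair and 212 and 189 in the Z138 pair (log2 difference 1.46, SE 0.12, limma adjusted p = 1.4e-05), and MDM2 was at 7.49 and 6.23 in Mino and 17.7 and 20.1 in Z138. All 10 genes of this list passed between the lines, against 67.4% of all genes.

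For the hairpin, GADD45B had the lowest mean among these genes, at 50.8 and 37.9 FPKM in the Mino pair and 95.8 and 70.5 in the Z138 pair (log2 ratios −0.41 and −0.44, mean −0.42, SE 0.12, unadjusted p = 0.00727). It did not pass in limma over all genes (adjusted p = 1.00). Between the lines, BUB1, a spindle checkpoint kinase, was higher in Z138, at 38.7 and 35.2 FPKM in the Mino pair and 82.2 and 95.6 in the Z138 pair. Most G2 and mitosis genes lay the other way in level, with 15 of 25 called higher in Mino (38.8% of all genes) and 3 in Z138 (28.7%). POLD3, a polymerase delta subunit, was at 20.8 and 19.2 FPKM in the Mino pair and 7.47 and 8.72 in the Z138 pair.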
